A study of Mus musculus with 6 samples.

Results

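The nuclear genes of respiratory complexes II to V were examined in RNA of LSK cells, the lineage-negative, Sca-1- and Kit-positive fraction of mouse bone marrow that holds haematopoietic stem cells and multipotent progenitors. The members were taken by name from the 55487 genes of the deposited table, as the Sdh subunit genes a to d, the Uqcr genes, Cyc1, Cycs, the Cox4 to Cox8 genes and the Atp5 genes. Of 61 matching names, 4 that end in -ps were left out, which gave 57 members. The annotation calls 7 of these pseudogenes (Uqcrh-ps1, Uqcrh-ps2, Cox7c-ps1, Atp5k-ps2, Atp5l-ps1, Atp5l-ps2 and Cox6c2), and 50 members are other genes. A member was tested if it had at least 10 counts in at least 3 libraries. This held for 49 members, 45 of them not pseudogenes.

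There were 6 poly-A libraries, 3 from LSK cells of Mc5r-null mice, labelled Mc5r-/-, and 3 from wild-type (WT) littermates. Mc5r encodes the melanocortin 5 receptor. The series describes both genotypes as irradiated, and dose, time, age and sex were not among the labels used. Nothing says that each library came from a separate mouse, so the spread between libraries may be technical. Mc5r had 0, 0 and 1 counts in Mc5r-null libraries and 181, 157 and 198 in WT libraries, in the order of the replicate numbers.

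Complexes II to V carry electrons from succinate and from reduced ubiquinone to oxygen and make ATP. Complex II (succinate dehydrogenase) belongs to both the citric acid cycle and the electron chain and is encoded wholly in the nucleus. Complex III passes electrons from ubiquinol to cytochrome c, complex IV (cytochrome c oxidase) passes them to oxygen, and complex V (ATP synthase) uses the proton gradient. The last 3 mix nuclear subunits with subunits encoded in mitochondrial DNA. Haematopoietic stem cells are known to rely less on this pathway than the progenitors they give rise to.

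RNA of the nuclear subunits was mostly lower in Mc5r-null libraries, by small amounts. In the edgeR quasi-likelihood test over 15348 genes, 27 of 49 members fell (55.1%, against 16% of all genes tested) and 1 member, Cox4i2, rose (against 16.7% of all genes), together 28 of 49 against 32.8% of all genes. The other 21 did not pass an adjusted p of 0.05. Without the pseudogenes, 27 of 45 fell (60%). The median log2 fold change, Mc5r-null minus WT, was -0.21 over the members and -0.005 over all genes tested. Among genes averaging at least 10 CPM (counts per library total, scaled to a common total), 21.1% were called lower and 17.4% higher. The 3 Mc5r-null libraries lay below the 3 WT libraries in CPM in 34 of 49 members, against 28.7% of all genes, and above them in 2, against 20.9%. Among the called members, the smallest sizes were those of Sdha, which fell by 4.19%, and Atp5b, which fell by 6.34%. The fall of Uqcr10 was the greatest among them, 38.3%. In bulk RNA, fewer cells of a type and less RNA per cell cannot be told apart.

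**Figure D1:**
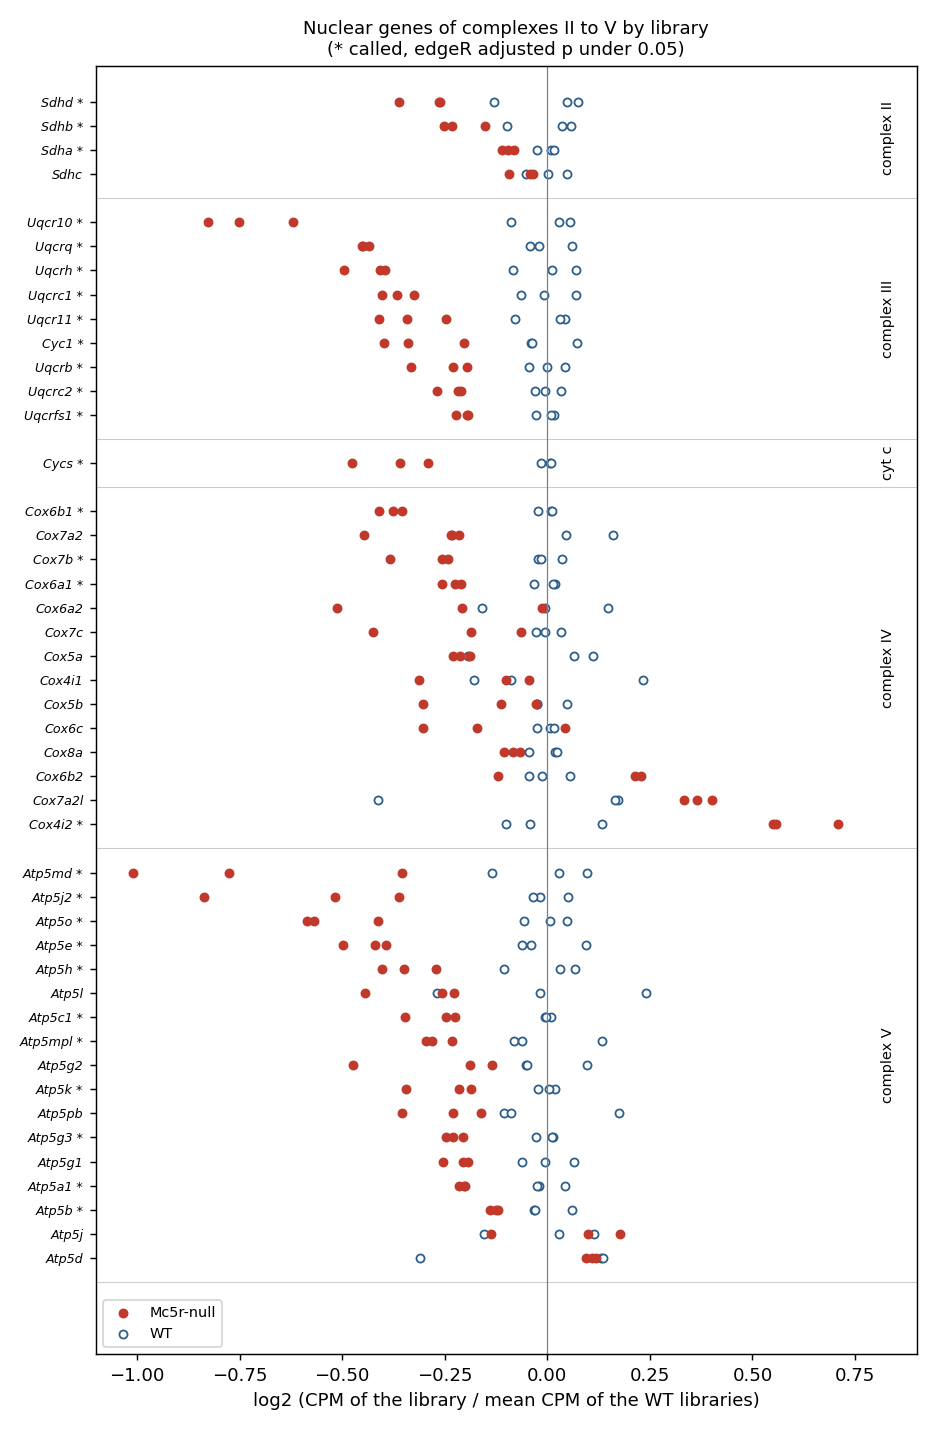
Each row is 1 of the 45 tested members that are not pseudogenes, grouped by complex, and each point is 1 library as log2 of its CPM over the mean CPM of the 3 WT libraries (filled, Mc5r-null; open, WT). An asterisk marks an edgeR adjusted p under 0.05; the filled points lie left of the open ones in all 9 rows of complex III, and Cox4i2 and Cox7a2l are the members whose filled points lie to the right of all open ones.

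The upstream sequence of 6 members that fell is shown for what nuclear respiratory genes are known for, promoter motifs of NRF1 and of ETS factors such as GABP. Each is up to 150 bases before the RefSeq start site, shortened where an annotated gene covers it, and read 5′ to 3′ in the direction of the gene. They come from the RefSeq promoter table of build GRCm38.p6. Capitals mark the letters CCGGAAG or their reverse complement CTTCCGG (ETS/GABP), and GCGCATGC or its reverse complement GCATGCGC (NRF1). Uqcr10, with none of these, is shown because its fall was the greatest among the called members. The others were picked because their bases hold such letters. No other member that fell and had bases left after this cut holds them there, Atp5c1, Cox6b1, Cox7b, Uqcrc1 and Uqcrfs1 among them. Some members that fell, such as Atp5a1, Atp5o and Uqcrq, had no such bases to search. In these cut bases, the 6 are therefore not typical of the members that fell. Longer windows held the letters in more of them, as given below.
Uqcrh (chr4:116075072-116075220, minus strand): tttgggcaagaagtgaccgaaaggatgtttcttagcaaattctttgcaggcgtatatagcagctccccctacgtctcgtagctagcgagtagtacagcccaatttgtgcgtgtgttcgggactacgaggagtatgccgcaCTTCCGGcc
Uqcr11 (chr10:80406831-80406971, minus strand): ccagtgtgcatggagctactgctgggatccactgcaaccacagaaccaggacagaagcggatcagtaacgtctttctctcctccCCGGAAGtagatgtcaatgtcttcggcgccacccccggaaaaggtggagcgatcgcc
Atp5e (chr2:174464106-174464251, minus strand): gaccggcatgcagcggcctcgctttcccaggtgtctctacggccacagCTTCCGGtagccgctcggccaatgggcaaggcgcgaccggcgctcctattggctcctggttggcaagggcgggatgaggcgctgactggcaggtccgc
Sdhd (chr9:50603850-50603909, minus strand): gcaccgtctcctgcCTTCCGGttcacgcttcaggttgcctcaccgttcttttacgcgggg
Cycs (chr6:50566570-50566642, minus strand): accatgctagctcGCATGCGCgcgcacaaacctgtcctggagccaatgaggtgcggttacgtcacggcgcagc
Uqcr10 (chr11:4704345-4704494, minus strand): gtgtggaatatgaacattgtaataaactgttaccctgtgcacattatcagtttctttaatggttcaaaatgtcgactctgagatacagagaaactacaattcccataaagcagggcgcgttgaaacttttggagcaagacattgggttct

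In windows of 250 bases before to 50 after the start, searched on both strands, 34 of the 45 tested members were in the table. The ETS/GABP letters stood in 13 of the 34 (38.2%), against 20% of the 10208 tested genes of the table and 9.93% of all 27025 genes in it. The NRF1 letters stood in 8 of 34 (23.5%), against 5.96% of tested genes and 3.05% of all genes. The letters AAGATGGC of YY1, also on both strands, stood in 3 of 34 (8.82%), against 5.26% and 3.19%. Of the 27 members that fell, 21 were in the table. The ETS/GABP letters stood in 10 of these 21 (47.6%), the NRF1 letters in 6 (28.6%) and the YY1 letters in 1 (4.76%). A gene with several start sites counted once if any of its windows held the letters. The NRF1 letters are a near-palindrome, so 1 site of 10 bases can match on both strands. Such a match is a description of the letters and not of a bound factor.

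In complex III, all 9 tested members fell, with a median log2 fold change of -0.30, and none of their Mc5r-null libraries overlapped the WT range. Uqcr10, the small subunit beside cytochrome c1 (chromosome 11, 4701973 to 4704342, GRCm38, minus strand), had 36.7, 40.2 and 34.8 CPM in Mc5r-null libraries and 58.1, 63.1 and 64.2 CPM in WT libraries. Every Mc5r-null value was below every WT value, a log2 fold change of -0.70 ± 0.07 (SE; edgeR adjusted p = 0.00011). Uqcrq, a small subunit at the ubiquinone-binding side (chromosome 11, 53427922 to 53430831, minus strand), had 60.0, 60.1 and 60.7 CPM in Mc5r-null libraries and 79.7, 85.6 and 80.9 CPM in WT libraries. The Mc5r-null values lay within 1 CPM of each other, and the log2 fold change was -0.41 ± 0.04 (SE; edgeR adjusted p = 0.000116).

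Uqcrc1, core protein 1 (chromosome 9, 108936633 to 108949623, plus strand), had 236, 243 and 230 CPM in Mc5r-null libraries and 320, 291 and 303 CPM in WT libraries, without overlap. It fell by 0.33 on the log2 scale (SE 0.04; edgeR adjusted p = 0.000303), and Uqcrc2, the other core protein, by 0.20. Both catalytic subunits fell as well. Cyc1, cytochrome c1, had a log2 fold change of -0.28, and Uqcrfs1, the Rieske iron-sulfur protein, of -0.17. The 5 small subunits fell by a median of 0.40, with Uqcrh, the hinge protein, at -0.40, Uqcr11 at -0.30 and Uqcrb at -0.22. Cycs, cytochrome c itself, the mobile carrier between complexes III and IV, had 38.0, 41.2 and 43.2 CPM in Mc5r-null libraries and 52.3, 53.1 and 53.1 CPM in WT libraries. The groups did not overlap, at a log2 fold change of -0.34 ± 0.05 (SE; edgeR adjusted p = 0.00197). With DESeq2, or without WT replicate 2, Uqcrb no longer passed, while the other 8 complex III genes and Cycs passed under each of the 15 other fits.

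In complex II, 3 of 4 genes fell (75%, against 16% of all genes), with a median log2 fold change of -0.12. Sdhd, the small membrane anchor, had 130, 130 and 122 CPM in Mc5r-null libraries and 161, 164 and 143 CPM in WT libraries, a log2 fold change of -0.26 ± 0.06 (SE; edgeR adjusted p = 0.0146). Sdhb, the iron-sulfur subunit, fell by 0.18 and Sdha, the flavoprotein subunit, by 0.06, with edgeR adjusted p of 0.0278 and 0.0474. Sdhc, the other anchor, did not pass (log2 fold change -0.02, edgeR adjusted p = 0.664), and its libraries overlapped. These calls were close to the threshold, since Sdha was lost under 12 of 15 other fits, Sdhb under 5 and Sdhd under 1, that without WT replicate 1. With DESeq2, 1 of the 4 was called.

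**Figure D2:**
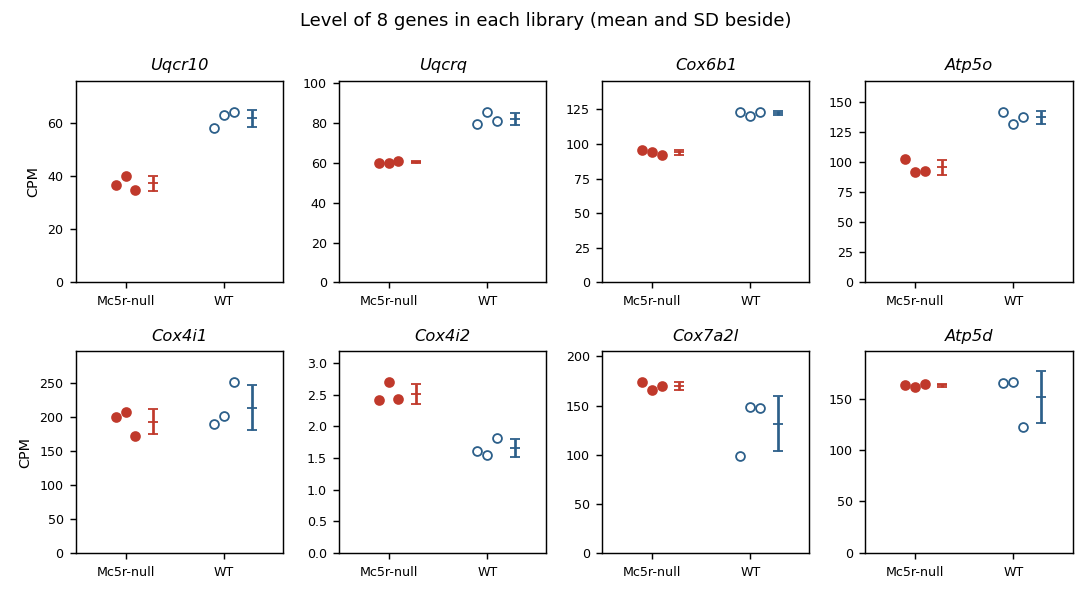
CPM of 8 members in each library (points) with the mean and SD of each genotype beside them, Mc5r-null on the left and WT on the right; each panel has its own axis from 0. In Uqcr10, Uqcrq, Cox6b1 and Atp5o the Mc5r-null points lie below the WT points, in Cox4i2 and Cox7a2l above them, and in Cox4i1, Cox7a2l and Atp5d 1 WT library stands off from the other 2.

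In complex IV, few genes passed. Of 16 tested members, 3 fell (18.8%, against 16% of all genes), 1 rose (6.25%, against 16.7%) and 12 did not pass. Over these 16 members, which include pseudogenes and paralogs known from other tissues, the share that fell was close to that of all genes. Without its 2 tested pseudogenes, 10 of 14 did not pass. Its 10 main subunits all had estimates below 0, with a median log2 fold change of -0.18. Only Cox6b1, Cox6a1 and Cox7b among them passed (30%, against 16% of all genes). Cox6b1, on the intermembrane-space side (chromosome 7, 30616861 to 30626151, minus strand), had 95.7, 94.2 and 92.0 CPM in Mc5r-null libraries and 123, 120 and 123 CPM in WT libraries. It had the smallest p of all members, with no overlap and a log2 fold change of -0.35 ± 0.03 (SE; edgeR adjusted p = 7.77e-05). Cox7b fell by 0.26 and Cox6a1, the ubiquitous form of subunit VIa, by 0.20. The other 7 main subunits had log2 fold changes between -0.26 (Cox7a2) and -0.05 (Cox8a), with edgeR adjusted p between 0.143 and 0.6. The libraries of Cox7c, Cox8a and Cox5b did not overlap between genotypes although these genes did not pass, and those of Cox7a2, Cox5a, Cox6c and Cox4i1 did overlap. The SE ranged from 0.03 to 0.14 over the 10 subunits, against 0.03 to 0.07 in complex III.

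Single libraries carried some of this spread. Cox4i1, the main form of subunit IV, had 199, 207 and 172 CPM in Mc5r-null libraries and 189, 201 and 251 CPM in WT libraries. Its WT replicate 3 was high, and without that library the estimate was 0.017, against -0.11 with all libraries. Cox5a passed once WT replicate 2 was left out, Cox7a2 without WT replicate 3 and Cox6c without Mc5r-null replicate 3, at log2 fold changes of -0.26, -0.37 and -0.20.

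Only Cox4i2 rose among the members. It encodes the isoform of subunit IV known from lung and from low oxygen, and it was scarce in these libraries (chromosome 2, 152754173 to 152765037, plus strand). It had 34, 38 and 34 counts in Mc5r-null libraries and 24, 23 and 27 counts in WT libraries. Each Mc5r-null value was above each WT value, and the log2 fold change was 0.64 ± 0.17 (SE; edgeR adjusted p = 0.0206). The call was lost with DESeq2, without Mc5r-null replicate 2 and without WT replicate 1 or 2. Of the summed FPKM of Cox4i1 and Cox4i2, it took 2.91 ± 0.22% in Mc5r-null and 1.75 ± 0.14% in WT libraries (SD, n = 3 each), with no overlap. FPKM is a level per length of gene model and per count total of the library.

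Other paralogs of complex IV did not move in 1 direction. Cox6b2, known from testis, took 6.28 ± 0.80% of the Cox6b FPKM in Mc5r-null and 4.54 ± 0.21% in WT libraries (SD, n = 3 each), without overlap, while its own CPM overlapped and did not pass (log2 fold change 0.15, edgeR adjusted p = 0.318). Cox6a2, the heart and muscle form of subunit VIa, took 9.46 ± 1.38% and 9.49 ± 1.06% of the Cox6a FPKM in Mc5r-null and WT libraries (SD, n = 3 each). Cox7a1, Cox7b2, Cox8b and Cox8c were untested, Cox7a1 with up to 9 counts in a library and the other 3 at 0. Cox7a2l, which links complexes III and IV into supercomplexes, had 174, 166 and 170 CPM in Mc5r-null libraries and 98.9, 149 and 148 CPM in WT libraries. The Mc5r-null libraries were all above WT, but WT replicate 1 was low, and the log2 fold change of 0.40 ± 0.18 (SE) did not pass (edgeR adjusted p = 0.167). Without WT replicate 1 it was 0.23 and passed, as it did with DESeq2 at 0.40. Ndufa4, a subunit of complex IV that is named after complex I and lies outside the members, fell by 0.22 (edgeR adjusted p = 0.00582).

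Of the 19 tested complex V members, 11 fell (57.9%, against 16% of all genes) and 8 did not pass, 2 of them pseudogenes. In F1, the catalytic head, 4 of 5 genes fell (80%, against 16% of all genes). Atp5a1 (alpha) had 786, 793 and 793 CPM in Mc5r-null libraries and 900, 896 and 940 CPM in WT libraries, a log2 fold change of -0.17 ± 0.02 (SE; edgeR adjusted p = 0.000373). Atp5b (beta) had a log2 fold change of -0.09, Atp5c1 (gamma) of -0.24 and Atp5e (epsilon) of -0.40. The call of Atp5b was lost with DESeq2 and without Mc5r-null replicate 1 or 3. Atp5d (delta) had 163, 162 and 164 CPM in Mc5r-null libraries and 166, 166 and 122 CPM in WT libraries. Only WT replicate 3 stood apart there, and the gene did not pass (log2 fold change 0.14, edgeR adjusted p = 0.489).

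In the peripheral stalk, 2 of 4 genes fell (50%, against 16% of all genes). Atp5o, the oligomycin sensitivity-conferring protein that holds the stalk to F1 (chromosome 16, 91925214 to 91931687, minus strand), had 103, 91.3 and 92.3 CPM in Mc5r-null libraries and 142, 132 and 138 CPM in WT libraries. It fell without overlap, at a log2 fold change of -0.49 ± 0.05 (SE; edgeR adjusted p = 0.000191). A second gene ID named Atp5o was at 0 in all libraries. Atp5h (subunit d) fell by 0.31. Atp5pb (subunit b) and Atp5j (coupling factor 6) did not pass, at -0.21 and 0.09.

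In the membrane sector, 5 of 8 genes fell (62.5%, against 16% of all genes). Among them were Atp5md and Atp5mpl, small subunits also known as DAPIT and the 6.8 kDa proteolipid, at log2 fold changes of -0.65 ± 0.16 and -0.24 ± 0.07 (SE). Atp5j2 (subunit f) had a log2 fold change of -0.53 ± 0.12 (SE), and Atp5k (subunit e) of -0.21. Atp5md was lost under 4 of 15 other fits, Atp5mpl under 5, Atp5j2 under 6 and Atp5k under 4. Atp5l (subunit g) did not pass, at -0.27.

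The c-ring is made from 3 genes that encode the same mature protein. Atp5g3 had 211, 205 and 208 CPM in Mc5r-null libraries and 246, 239 and 245 CPM in WT libraries, and it fell by 0.19 on the log2 scale (SE 0.02; edgeR adjusted p = 0.000452). Atp5g1 had 21.4, 20.5 and 21.2 CPM in Mc5r-null libraries and 23.5, 24.4 and 25.6 CPM in WT libraries, without overlap, at a log2 fold change of -0.18 and an edgeR adjusted p of 0.0572. Atp5g2 had 1.71, 1.35 and 1.64 CPM in Mc5r-null libraries and 2.01, 1.81 and 1.81 CPM in WT libraries, at -0.22 and 0.486. Atp5g3 made up 96.1 ± 0.14% of their summed FPKM in Mc5r-null and 96.1 ± 0.07% in WT libraries (SD, n = 3 each), and these shares overlapped. The shares depend on gene models of 9797 bases for Atp5g1 and 2931 bases for Atp5g3, which need not be the lengths of the mRNAs. By the CPM above, the part of Atp5g1 is larger.

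As a share of the WT mean, the summed CPM of complex III was lower than those of complexes II, IV and V in each Mc5r-null library. Complex III summed to 838 ± 1.28 CPM in Mc5r-null and 1058 ± 18.2 CPM in WT libraries (SD, n = 3 each), 79.2% of WT. Complex V summed to 3058 ± 36.4 CPM in Mc5r-null and 3506 ± 36.5 CPM in WT libraries, 87.2% of WT. Complex II summed to 694 ± 6.91 CPM in Mc5r-null and 766 ± 4.76 CPM in WT libraries, 90.7% of WT. Such sums weigh abundant genes most. In complex II, Sdha alone averaged 373 CPM in Mc5r-null and 399 CPM in WT libraries. In complex V, Atp5a1 averaged 791 and 912 CPM and Atp5b 1081 and 1181 CPM, in the same order. The 10 main subunits of complex IV summed to 965 ± 14.7 CPM in Mc5r-null and 1108 ± 39.9 CPM in WT libraries, 87.1% of WT. With Cox7a2l and the paralogs of other tissues, 18 genes in all, the share was 91.8%, and without Cox7a2l alone it was 87.4%, so the place of complex IV beside complexes II and V depended on that gene. No sum overlapped between genotypes. The ratio of the complex III sum to that of the 10 main complex IV subunits was 0.875, 0.852 and 0.878 in Mc5r-null libraries and 0.968, 0.974 and 0.926 in WT libraries, again without overlap. Over all 18 genes it was 0.724, 0.714 and 0.730 in Mc5r-null libraries and 0.871, 0.837 and 0.806 in WT libraries. The sum over the main subunits was added after seeing the data. Whether the complexes differ in their change was not tested. CPM are shares of all counts, without the TMM factors of 0.985 to 0.992 in Mc5r-null and 1.01 in WT libraries that enter the fitted values.

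**Figure D3:**
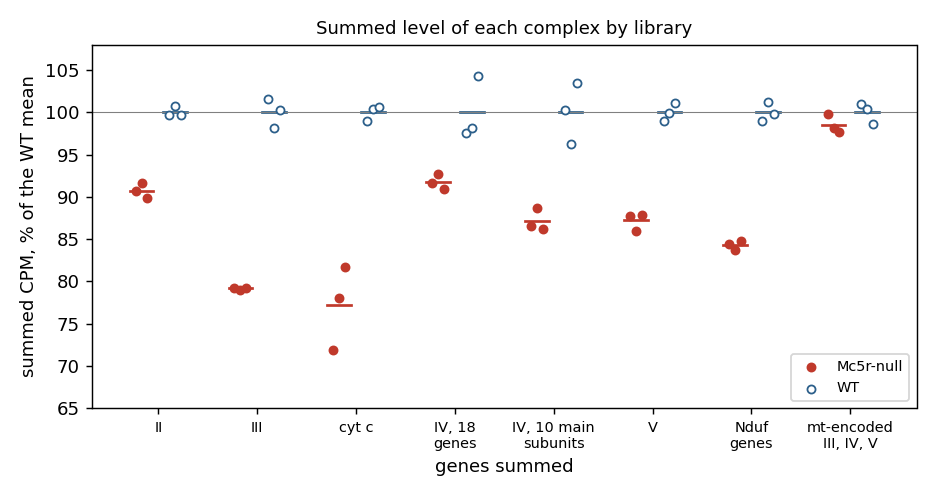
Summed CPM of each complex in each library as a percentage of the WT mean (filled, Mc5r-null on the left of each pair; open, WT; bars, means; the axis starts at 65%). Complex III at 79.2% and cytochrome c at 77.2% lie below complex II at 90.7%, complex V at 87.2% and complex IV at 87.1% over its 10 main subunits or 91.8% over 18 genes with Cox7a2l, and the mitochondrially encoded genes lie at 98.5%.

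Per length, the level spanned a wide range. Among the 45 tested members that are not pseudogenes, Atp5a1 had 150 ± 0.78 FPKM in Mc5r-null and 173 ± 4.65 FPKM in WT libraries (SD, n = 3 each), the highest WT mean, and Atp5b followed with 156 ± 1.02 and 171 ± 6.21 FPKM. Atp5g2 was lowest in both genotypes, with 0.742 ± 0.091 and 0.888 ± 0.054 FPKM. The deposited FPKM use the length of the whole gene model, 680 bases (Cox6a2) to 9797 bases (Atp5g1), which is not the length of the main mRNA.

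Of the 6 mitochondrially encoded subunits of complexes III, IV and V, 1 fell (16.7%, against 16% of all genes), 1 rose (16.7%, against 16.7%) and 4 did not pass. These shares were close to those of all genes. The fall was that of mt-Cytb, by 0.04 (edgeR adjusted p = 0.0243), a call lost under 7 of 15 other fits. The rise was that of mt-Atp6, by 0.17 (edgeR adjusted p = 0.00596). The summed level of the 6 was 19916 ± 217 CPM in Mc5r-null and 20211 ± 252 CPM in WT libraries (SD, n = 3 each), with overlap. The 51 tested genes named Nduf hold the nuclear subunits of complex I, its Ndufaf assembly factors, Ndufa4 and names in -ps. Of these, 27 fell (52.9%, against 16% of all genes) and 24 did not pass, at a median of -0.20 on the log2 scale. The summed CPM of all Nduf genes was 84.3% of WT. Without Ndufaf genes, names in -ps, Ndufa4 and Ndufa4l2, 22 of 38 fell (57.9%, against 16% of all genes), with a median of -0.20.

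**Figure D4:**
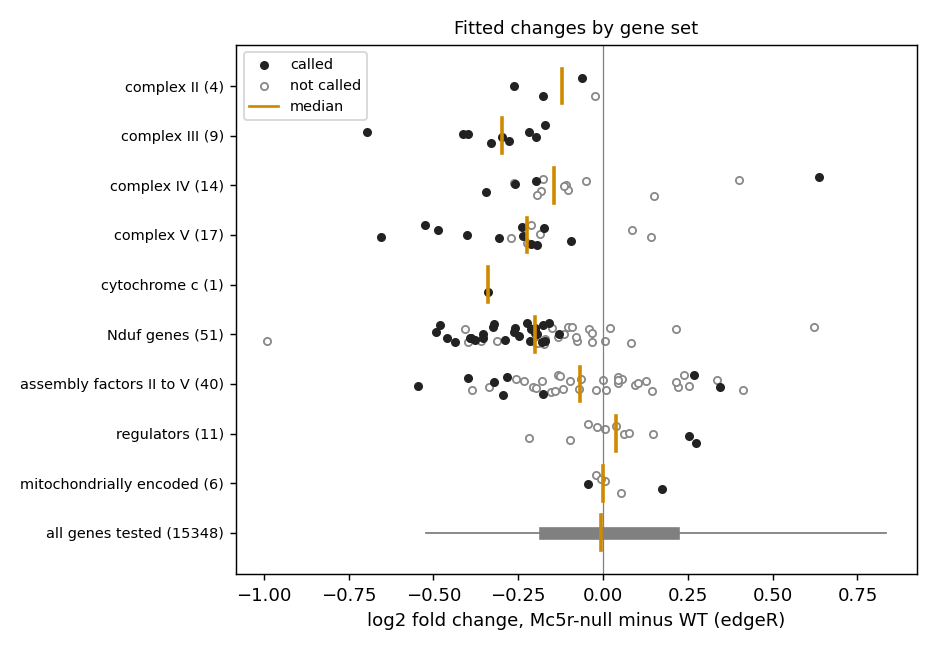
Fitted edgeR log2 fold changes, Mc5r-null minus WT, of each gene in 9 sets (filled, adjusted p under 0.05; open, not passed; vertical bar, median; pseudogenes left out), with the number of genes in brackets. The bottom row gives all genes tested as the 5 to 95% range (line), the 25 to 75% range (thick line) and the median; the medians of complexes II to V lie between -0.30 and -0.12, and that of all genes at -0.005.

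Of 40 tested factors, 6 fell (15%, against 16% of all genes) and 2 rose (5%, against 16.7%), shares no greater than those of all genes, with a median log2 fold change of -0.07. For complex IV, Lrpprc, which stabilises mitochondrial mRNAs, fell by 0.28, Coa3 by 0.30 and the copper chaperone Sco1 by 0.40 (edgeR adjusted p = 0.000305, 0.00316 and 0.00316). For complex V, Fmc1, which helps to assemble F1, fell by 0.55 and Atpif1, the inhibitor of ATP hydrolysis, by 0.18, while Tmem70 at 0.41 did not pass. Without WT replicate 1, Tmem70 was at 0.88 and passed. For complex III, Uqcc1 rose by 0.34 and Uqcc2 fell by 0.32, both factors for cytochrome b, and Hccs, which attaches haem to cytochrome c, did not pass at -0.15. For complex II, Sdhaf1 rose by 0.27 (edgeR adjusted p = 0.0472), and Sdhaf2 and Sdhaf4 did not pass at -0.21 and -0.23. The rise of Sdhaf1 was lost under 9 of 15 other fits and the fall of Uqcc2 under 6. Whether factors and subunits differ in their change was not tested.

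Among 11 tested regulators of nuclear respiratory genes, 2 rose (18.2%, against 16.7% of all genes) and 9 did not pass. The share that rose was close to that of all genes. Gabpb1, a subunit of GABP, rose by 0.25 (edgeR adjusted p = 0.0262) and the coactivator Ppargc1b by 0.27 (edgeR adjusted p = 0.0369). Both were lost under several other fits, 4 and 9 of 15. Nrf1, Gabpa, Yy1 and Tfam had log2 fold changes of 0.04, -0.05, -0.02 and 0.01, with edgeR adjusted p of 0.348 or more.

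Markers of several cell types differed between the genotypes beside these results. Granulocyte and monocyte markers fell in 14 of 15 tested genes and summed to 11737 to 12022 CPM in Mc5r-null and 18083 to 19037 CPM in WT libraries. Mast cell and basophil markers fell in 6 of 7 tested genes, with sums of 267 to 322 CPM in Mc5r-null and 532 to 561 CPM in WT libraries, and Cma1 was at 0. Erythroid markers rose in 11 of 12 genes, with sums of 189 to 191 CPM in Mc5r-null and 39.3 to 41.1 CPM in WT libraries. Plasma and B cell markers rose in 12 of 15 genes and fell in 2, and immunoglobulin genes took 6.87 to 6.96% of counts in Mc5r-null and 2.15% in WT libraries. Of 8 LSK markers, 6 rose, Kit and Cd34 among them, with sums of 1625 to 1652 CPM in Mc5r-null and 1312 to 1344 CPM in WT libraries, and Ly6a, which encodes Sca-1, did not pass. T and NK markers rose in 2 and fell in 1 of 5, and megakaryocyte markers rose in 1 and fell in 1 of 4. Stromal and endothelial markers rose in 3 of 6, with Lepr at 0. Over all genes tested, 16% fell and 16.7% rose. With so few genes, the counts of these last lists were not read as a difference. Without the immunoglobulin genes in the fit, 26 members fell and the median was -0.20. The part of the other cell types in the members' change was not tested.

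The share of genes called lower also varied with gene length. Among genes of at least 10 CPM with a model of at least 1000 and under 2000 bases, 9 of 12 members fell, and 36.9% of 521 other genes did. From 2000 to under 4000 bases, 12 of 19 members fell, and 30% of 1547 other genes did. At 4000 bases or more, 5 of 10 members fell, and 17.4% of 7096 other genes did. The share of members was above that of other genes in each of these bins, and its cause was not tested.

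Some counts can be shared with other loci. Of the tested members that are not pseudogenes, 7 overlap a gene on the opposite strand with over 10% of their counts (Atp5md, Atp5pb, Cox6a2, Uqcrh, Cox6c, Atp5j and Cox4i1), 2 of which fell, and the sources do not say whether counting used strand. Of the 4 pseudogene members tested, none was called by edgeR, at an unadjusted p under 0.05 none as well, and with DESeq2 none, at log2 fold changes of -0.28 to 0.04. Of the names left out, the pseudogenes Atp5l2-ps and Atp5pb-ps fell by 0.48 and 0.39 (edgeR adjusted p = 0.0255 and 0.0132), and Atp5c1-ps was at 0. Cox5b-ps, also left out by its name although annotated as protein-coding, fell by 0.29, and Cox5b did not pass at -0.11, with reads of such near copies being uncertain.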

How the data were processed

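Poly-A RNA of 3 Mc5r-null and 3 WT LSK libraries was sequenced as paired ends with a stranded kit, per the labels' protocols. The authors deposited 1 table with whole-number counts and FPKM per gene and library. The submitters' processing notes name CASAVA 1.8, HISAT2, StringTie, edgeR and GRCm38 without roles, and the counting settings are not given in the sources used here. The deposited FPKM values followed the counts divided by gene model length and library total. Counts summed to 13983016 to 14076870 in Mc5r-null and 14903723 to 14953169 in WT libraries. Of the gene IDs, 99.4% were in GENCODE mouse release 21 at the same locus.

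Counts were tested in R 4.3.3 with edgeR 4.0.16 (TMM, robust quasi-likelihood F-test, genotype only, genes with at least 10 counts in 3 libraries). P-values were adjusted by Benjamini-Hochberg over all 15348 genes, with a call at 0.05, and the procedure was tested on simulated data. CPM divide by the total of gene counts. Alternatives were RLE and upper-quartile scaling, DESeq2 1.42.0, limma-voom 3.58.1, other count filters, no immunoglobulin genes, a replicate block, other thresholds and each library left out. Leaving out the pseudogene rows was added after seeing the data. The coefficient of variation between libraries of a genotype, from edgeR's common dispersion, was 9.96% and may be technical. It is 1 value over all genes, and the spread was uneven between them. For library pairs of a genotype, the median chi-square per gene was 0.674 to 0.720, against 0.455 for counting noise alone, and the mean was 6.12 to 8.37.

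Members and lists were chosen with earlier results of these data known. Named by rule were all called members, the 3 members per complex and list with the smallest p, Cycs and the paralogs; library values were due for the 5 smallest p per direction and the Atp5g genes. Other genes and values, Cox7a2l, Atp5d, Atp5a1, Sdhd, the left-out -ps names, the remaining members that did not pass and the cell markers among them, were named after their values were seen. Equal replicate numbers gave no sign of pairing between the libraries, which the correlations used cannot exclude.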

Additional observations from a re-analysis of the deposited data

How the results depend on the processing

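The number of members that fell was 27 in the reported fit, 21 with DESeq2, 18 at an adjusted p under 0.01, 28 at 0.1 and 22 to 25 with 1 library left out. Of these 27, 18 were called under each of the 15 other fits, and all 27 kept their direction: 8 of the 18 are in complex III, 6 in complex V, 3 in complex IV and 1 is Cycs. Members called higher numbered 0 at an adjusted p under 0.01 and 0 to 1 with 1 library left out, 0 without Mc5r-null replicate 2 or WT replicate 2, where Cox4i2 was lost; with DESeq2 the 1 gene was Cox7a2l. With the replicate number as a block, 23 members fell and 1 rose. The same-number correlations were 0.005, -0.047 and -0.026, which gave no sign of pairing. They cannot exclude it, since libraries that differ mainly by counting noise could give such values too. Assembly factors called higher numbered 1 with upper-quartile scaling, with DESeq2, without a count filter, with the replicate block and at an adjusted p under 0.01, and 1 to 3 with 1 library left out; those called lower numbered 12 at 0.1. The count of all genes called higher was 1654 with DESeq2 and 1549 at 0.01, and that of all genes called lower was 1445 and 1452. The sign turned in 4 genes that were not called. With 1 library left out, Atp5k-ps2 lay between -0.21 (without Mc5r-null replicate 2) and 0.20 and was at -0.094 without WT replicate 1, Atp5l-ps1 between -0.32 and 0.055 (without Mc5r-null replicate 1), Sdhc between -0.05 and 0.0014 (without WT replicate 3) and Cox4i1 between -0.20 and 0.017 (without WT replicate 3). The causes were not tested. Without the pseudogenes the median was -0.15 in complex IV and -0.22 in complex V. With 3 libraries per genotype, the low counts of Cox4i2 and Atp5g2 limit what can be called.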
